A study of Homo sapiens with 24 samples.

Results

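RNA levels in drug tolerant persister (DTP) cells of a chemoresistant oesophageal cancer line were compared with those in the parental line that it is titled after. The 2 groups held 6 libraries each, 12 of the 24 in the series. They were chosen by their labelled phenotype, chemoresistant-DTP against parental, which sums the change from parental to resistant cells and the change from resistant cells to their persisters. The 12824 genes compared, of 61251 in the table, are those whose mean reached 1 FPKM (reads or fragments scaled to gene length and library size) in either group. All libraries are from KYSE450, an established human cell line derived from a squamous carcinoma of the oesophagus (ESCC), and carry the genotype WT. The parental libraries are titled KYSE450 and the chemoresistant DTP libraries KYSE450DDP-DTP. The other 2 groups, chemoresistant cells (KYSE450DDP) and parental DTP cells (KYSE450-DTP), also with 6 libraries each, served to split the change into its steps. All cells grew in RPMI-1640 with 10% FBS, and no treatment is listed for any library. The labels name no drug, dose or time, do not say how the resistant cells or the persisters were obtained, and do not say whether the resistant line is 1 clone. Nor do they state whether the 6 replicates were grown separately, and the p-values therefore rest on a spread between libraries that may be technical. As these are bulk samples, fewer cells of a kind and less RNA per cell cannot be told apart.

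Persister cells are the part of a tumour population that lives through a drug without a heritable resistance change, often while cycling slowly. Resistant lines, by contrast, grow out under drug and keep their state. NRF2, encoded by NFE2L2, is the transcription factor that raises glutathione synthesis, thioredoxin and aldo-keto reductase genes when its inhibitor KEAP1 is blocked. It is often active in squamous cancers of the oesophagus. The series title names GDF15, a stress-induced secreted factor, its receptor GFRAL, NRF2, the glutathione enzyme GCLC and cuproptosis, a copper-dependent cell death that acts through lipoylated mitochondrial enzymes.

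Reads recovered from the FPKM values summed to 16670425 to 28841994 in the parental libraries and to 20166509 to 29128757 in the chemoresistant DTP libraries. Chemoresistant DTP library 2 stood apart. Its root mean square deviation from the group mean was 0.304 on the log2(FPKM + 1) scale, against 0.119 to 0.144 in the other 5. It held 15 genes more than 2-fold above and 146 more than 2-fold below the mean of the other 5. Its deviations fell with gene length (Spearman correlation of -0.44 across 12824 genes, which are not independent), with a median of -0.36 in the longest decile of genes and -0.04 in the shortest. Parental DTP libraries 5 and 6 also stood apart: AKR1C3, at 0.641 to 0.763 FPKM in the other 4, was at 7.56 and 6.07 in them, and S100A9, at 3.90 to 4.64 in the other 4, was at 35.9 and 34.1. COL1A1 and SPARC, of the fibroblast markers, split 2 groups evenly. COL1A1 was at 8.09 to 9.50 FPKM in chemoresistant DTP libraries 1 to 3 and at 1.84 to 2.00 in 4 to 6, and at 2.44 to 2.80 in chemoresistant libraries 1 to 3 and 8.79 to 12.2 in 4 to 6. SPARC split the same way, at 2.00 to 3.52 and 0.034 to 0.111 FPKM in the persister libraries. What this split shares with other results was not tested. The parental group was not uniform either. Deviations from its mean followed GC content with Spearman correlations of -0.56 and -0.58 in parental libraries 5 and 6. In parental libraries 1 to 4 these correlations were 0.19 to 0.51. With the GC trend removed, 5817 of 12390 genes were higher and 3802 lower. What sets parental libraries 5 and 6 apart was not tested. Parental DTP libraries 5 and 6 enter the comparison only through the spread that the 4 groups share. For AKR1C3, S100A9 and BST2 the SE therefore includes the distance of libraries 5 and 6 from the other 4 of that group. The part of libraries 5 and 6 in the results was not tested beyond the fit without that group, which called 5843 genes higher and 3685 lower.

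Between parental and chemoresistant DTP cells, 9580 of the 12824 genes passed the adjusted p threshold of 0.05 (74.7%), 5875 higher (45.8%) and 3705 lower (28.9%) in the persisters. A fold of at least 2 was reached by 922 higher (7.19%) and 360 lower genes (2.81%), and the 6 libraries of a group did not overlap the 6 of the other for 6743 genes (52.6%). Rises reached further than falls: 62 genes were at least 8-fold higher and 4 at least 8-fold lower. With 74.7% of genes called, a share of a gene list that passed the test has to be read against these shares, and the sizes of the changes are given for that reason. Changes are log2 fold changes from limma on log2(FPKM + 1), ± SE, a scale that understates the change of genes with low levels. Without chemoresistant DTP library 2, 6149 of the same 12824 genes were higher and 3719 lower. The split depended on the scaling. Of the genes called, 61.3% were higher with FPKM as deposited and 43.8% with relative log expression factors, which moved the median over all genes tested by 0.18, from 0.12 to -0.06. Of the 12824 genes, 1506 reached 1 FPKM only in the chemoresistant DTP group and 460 only in the parental group, so that their direction was largely set by the filter. At the edge of the filter, PDE3B, HABP4 and DCST2 were just inside with a larger group mean of 1.001, 1.001 and 1.002 FPKM, and RBM11, STK3 and EFCAB7 just outside with 0.9992, 0.9998 and 0.9998 FPKM.

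**Figure D1:**
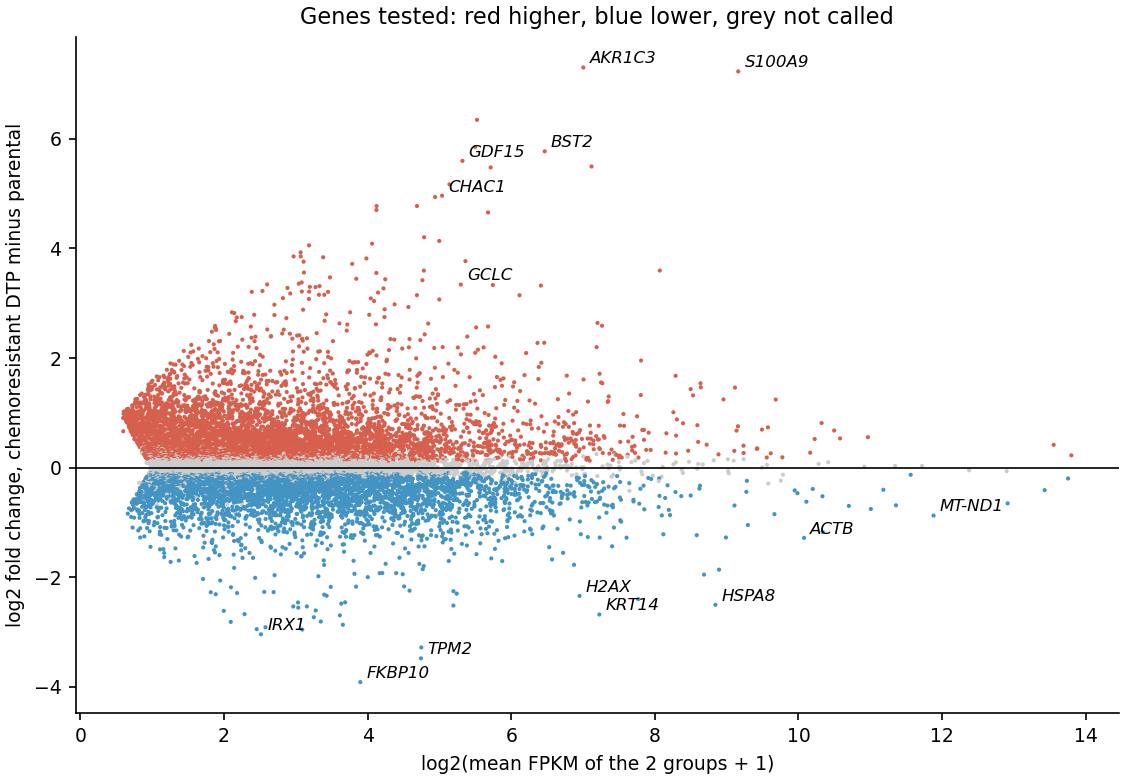
Log2 fold change of each gene tested (vertical axis, on log2(FPKM + 1)) against its mean level in the 2 groups (horizontal axis, log2 scale). Red points are the 5875 genes called higher, blue points the 3705 called lower and grey points the genes not called. The largest rises reach above 7 and the largest falls stop near -4.

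Markers of squamous epithelium were abundant in both groups. All 16 listed reached the filter, and their summed level was 5072 to 5557 FPKM in the parental libraries and 5986 to 6892 in the chemoresistant DTP libraries. TP63, the master regulator of squamous epithelium, was at 82 to 99.5 FPKM (median 94) in the parental libraries and 65.9 to 109 FPKM (median 107) in the chemoresistant DTP libraries, and SOX2, an amplified squamous lineage factor, at 70.1 and 79.9 (medians). Neither passed the test (adjusted p = 0.472 and 0.153). KRT14, a keratin of basal cells, was at 234 to 288 FPKM (median 254) in the parental libraries and 34.9 to 50.4 FPKM (median 38.2) in the chemoresistant DTP libraries, a log2 fold change of -2.68 ± 0.07 (SE; adjusted p = 4.58e-20), and the 2 groups did not overlap. Its partner KRT5 rose by 0.55 ± 0.06, and DSG3, a desmosomal cadherin, by 1.90 ± 0.09. Most markers of other cell types did not reach the filter. The 9 fibroblast markers summed to 3.27 to 7.98 FPKM in parental and 2.77 to 14.6 in chemoresistant DTP libraries, with 1 of 9 reaching the filter and none called. That gene, COL1A1, was one of the pair that split the persister libraries. The 11 leukocyte markers summed to 0.287 to 0.455 and 0.516 to 3.02 FPKM, and only LYZ reached the filter. LYZ, listed at 0 in each parental library, was at 0.0285 to 2.53 FPKM (median 1.44) in the persisters. Of 7 endothelial markers only EGFL7 reached the filter, at 10.9 to 14.2 FPKM (median 12.1) in the parental libraries and 13.2 to 21.4 FPKM (median 15) in the chemoresistant DTP libraries, and its call was lost with relative log expression factors (0.11, adjusted p = 0.443). None of 10 glandular and 7 erythroid markers did.

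NRF2 targets rose nearly without exception. All 40 targets listed reached the filter, 6 of them in 1 group only, and 39 were higher and 1 lower, with a median log2 fold change of 1.41 against 0.12 over all genes tested; 31 were at least 2-fold higher. For each of the 40 the ranges of the 2 groups were separate. NFE2L2 itself, at chr2:177227595-177392697 on GRCh38, was at 13.8 to 18 FPKM (median 15.1) in the parental libraries and 40.5 to 47.1 FPKM (median 44.3) in the chemoresistant DTP libraries, a log2 fold change of 1.43 ± 0.08 (SE; adjusted p = 2.77e-14). KEAP1, its inhibitor, also rose, by 0.54 ± 0.09 (SE; adjusted p = 9.83e-06). The aldo-keto reductases, which reduce aldehydes, ketones and steroids, held the largest rise among all genes tested. AKR1C3 (chr10:5035354-5107686) was at 0.475 to 0.802 FPKM (median 0.568) in the parental libraries and 232 to 313 FPKM (median 244) in the chemoresistant DTP libraries, a log2 fold change of 7.30 ± 0.31 (SE; adjusted p = 1.55e-16). Every persister library lay far above every parental one. AKR1B10 went from 0.0236, 0.119 and 0.176 FPKM (lowest, median, highest parental library) to 84.3, 88.3 and 104 FPKM, a change of 6.35 ± 0.19 (SE; adjusted p = 2.39e-19), and AKR1C2 and AKR1C1 changed by 5.50 ± 0.14 and 5.48 ± 0.13. The AKR1C copies are similar in sequence and may share reads, which was not examined, so the split between them is uncertain. The single target that fell was GSR, which regenerates reduced glutathione, at -0.26 ± 0.04.

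Glutathione genes mostly rose, among them genes of supply, synthesis, use and breakdown. Of 34 genes listed, 30 reached the filter, with 26 higher, 2 lower and a median of 0.69. SLC7A11, the cystine importer, was at 0.998 to 1.53 FPKM (median 1.43) in the parental libraries and 13.8 to 30.4 FPKM (median 27.3) in the chemoresistant DTP libraries, a log2 fold change of 3.45 ± 0.14 (SE; adjusted p = 3.97e-17). GCLC (chr6:53497341-53616970), the catalytic subunit of the rate-limiting ligase, was at 5.7 to 6.54 FPKM (median 5.99) in the parental libraries and 65.9 to 75 FPKM (median 71.3) in the chemoresistant DTP libraries, and changed by 3.34 ± 0.06 (SE; adjusted p = 3.64e-23). The 2 groups did not overlap. GCLM, the modifier subunit of the same enzyme, went from 7.84, 8.32 and 11.1 FPKM (lowest, median, highest parental library) to 19.3, 23.4 and 24.9 FPKM, a smaller change of 1.22 ± 0.10 (SE; adjusted p = 7.13e-11). Parental libraries 5 and 6 held the highest parental GCLM levels. GPX2, a glutathione peroxidase of epithelia, rose by 2.64 ± 0.05. CHAC1, which breaks glutathione down, rose most of the list, by 4.96 ± 0.08. ABCC2 and ABCC3, which export glutathione conjugates, rose by 3.76 ± 0.08 and 1.94 ± 0.09, ABCC2 from 0.123, 0.191 and 0.221 FPKM (lowest, median, highest parental library) to 11.2, 15.6 and 16.7 FPKM.

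Thioredoxin and NADPH genes mostly rose as well: 24 of 26 reached the filter, 20 higher and 2 lower, with a median of 0.67. Lists share members, with 1293 entries for 1203 genes over all lists, so their counts are not independent. GPX2, for instance, is listed both as an NRF2 target and as a glutathione gene. TXNRD1, thioredoxin reductase, was at 33.7 to 36.8 FPKM (median 34.6) in the parental libraries and 118 to 143 FPKM (median 139) in the chemoresistant DTP libraries, a log2 fold change of 1.91 ± 0.06 (SE; adjusted p = 3.28e-19), and TXN, its substrate, rose by 1.46 ± 0.07. TXNIP, which binds and inhibits thioredoxin, rose by 2.20 ± 0.06. IDH1, a cytosolic source of NADPH, rose by 2.07 ± 0.05. Both GCLM and TXNRD1 carry the core of the antioxidant response element, to which NRF2 binds, close to their RefSeq start (GRCh38.p14). It is shown in capitals, on the same strand as TXNRD1 and on the opposite strand of GCLM, in chr12:104215664-104215704 (plus strand) and chr1:93909440-93909480 (minus strand).
TXNRD1: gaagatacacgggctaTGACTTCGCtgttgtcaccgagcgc
GCLM: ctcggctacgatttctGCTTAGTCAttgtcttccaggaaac
The core searched was TGACNNNGC on either strand, in 250 bases before to 50 after the start. It was found in 8 of the 29 NRF2 target promoters that RefSeq's table held (27.6%), against 15.4% of 8981 promoters of genes tested. A match is a description and not a binding site.

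**Figure D2:**
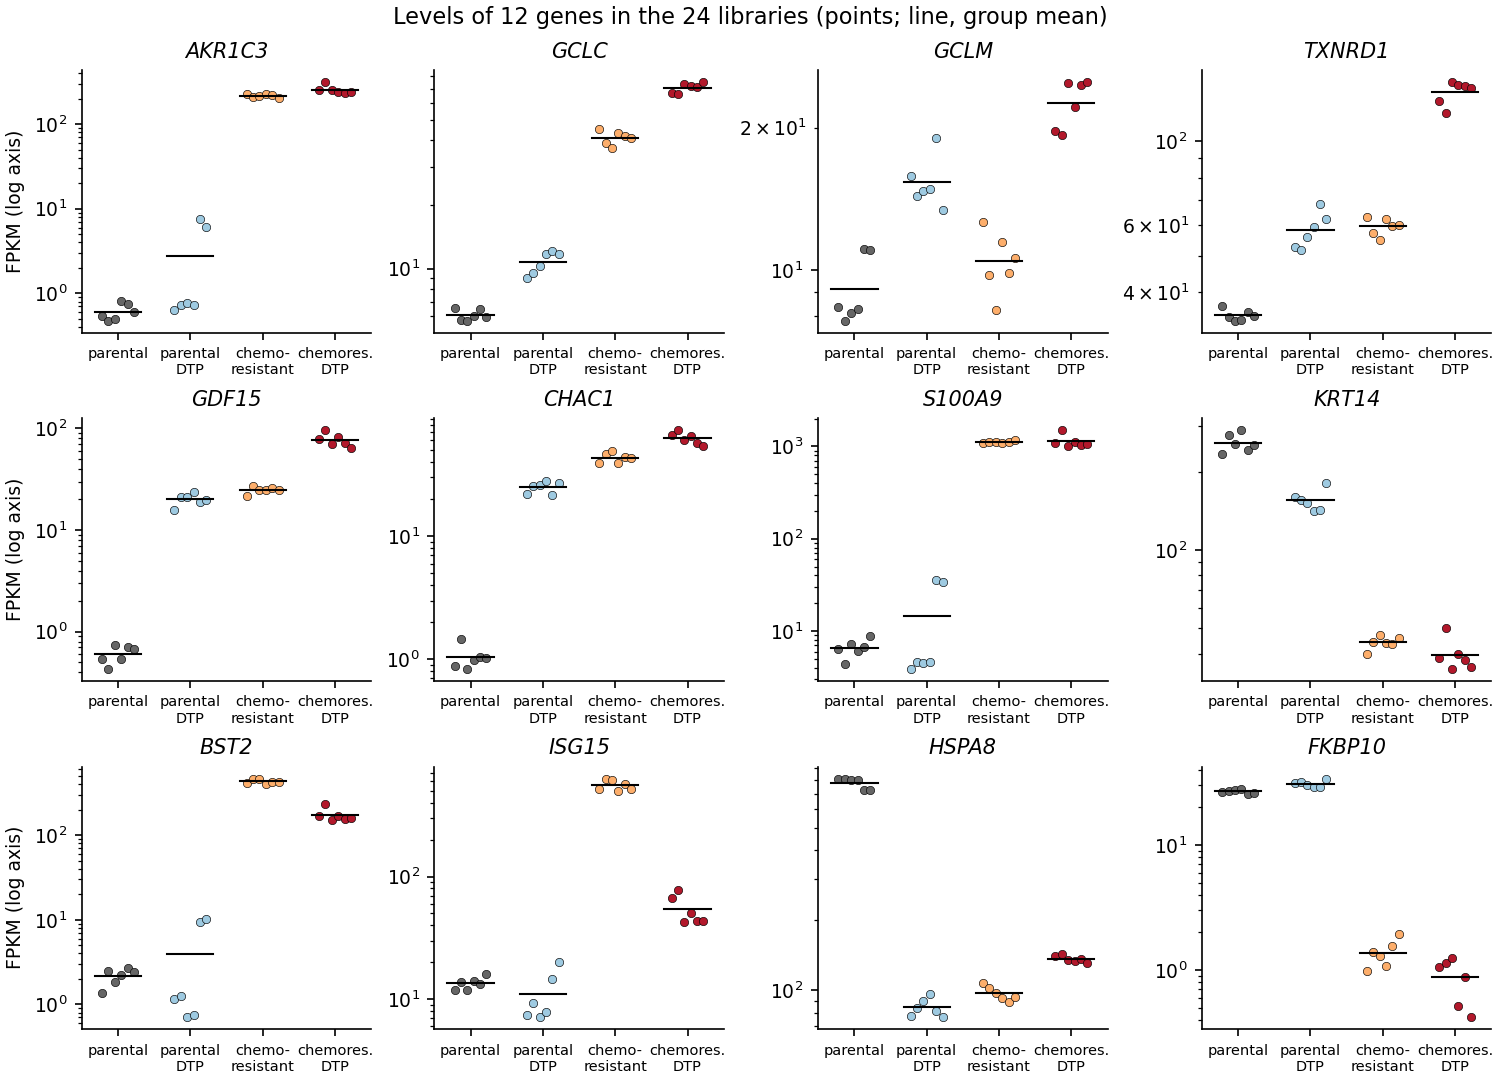
FPKM of 12 genes in each of the 24 libraries on log axes, 6 points a group, with the group mean as a line. AKR1C3 and S100A9 lay at similar levels in chemoresistant cells and their persisters, GCLM and TXNRD1 were highest in the chemoresistant persisters, and ISG15 was highest in chemoresistant cells. For AKR1C3, S100A9 and BST2 the 2 high points of the parental DTP group are its libraries 5 and 6.

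GDF15 (chr19:18374731-18389176) was nearly silent in parental cells and abundant in the chemoresistant persisters. It was at 0.431 to 0.742 FPKM (median 0.61) in the parental libraries and 63.9 to 95.6 FPKM (median 75.5) in the chemoresistant DTP libraries, a log2 fold change of 5.60 ± 0.09 (SE; adjusted p = 8.22e-25), and no library came near the other group. Its receptor GFRAL gave 0 reads in the 6 parental libraries together, which allows up to 3, and 2 reads in the 6 chemoresistant DTP libraries, so no difference was detectable. GDF15 was also the largest rise among targets of ATF4, the transcription factor of amino acid and endoplasmic reticulum stress. All 36 of these targets reached the filter, 9 of them in 1 group only; 32 were higher and 2 lower, with a median of 1.99, and 27 were at least 2-fold higher. CHAC1 was at 0.837 to 1.46 FPKM (median 0.998) in the parental libraries and 54.2 to 72.4 FPKM (median 63) in the chemoresistant DTP libraries, a log2 fold change of 4.96 ± 0.08 (SE; adjusted p = 1.98e-24). CTH, the enzyme that makes cysteine from cystathionine, changed by 4.21 ± 0.06 and ADM2, a peptide hormone, by 3.84 ± 0.05. Each of these was higher in all 6 persister libraries than in any parental one. The rise was not particular to the chemoresistant persisters. In parental DTP cells GDF15 and CHAC1 had medians of 20.4 and 25.7 FPKM. From parental to parental DTP cells the ATF4 targets had a median change of 1.48. From parental DTP to chemoresistant DTP cells it was 0.34. SLC7A5, an amino acid importer counted among ATF4 targets, fell, at -0.47 ± 0.07, and ATF5 at -0.17 ± 0.05.

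The cytosolic aminoacyl-tRNA synthetases, which load amino acids onto tRNAs and include known ATF4 targets, split. All 20 reached the filter, 14 higher and 4 lower, with a median of 0.72. From parental to parental DTP cells their median was 0.68, and from parental DTP to chemoresistant DTP cells 0.07. CARS1, for cysteine, went from 4.36, 4.79 and 5.18 FPKM (lowest, median, highest parental library) to 20.6, 21 and 21.1 FPKM, a log2 fold change of 1.92 ± 0.04 (SE; adjusted p = 8.37e-22). TARS1, GARS1 and SARS1 rose by 1.71, 1.69 and 1.69. FARSA, HARS1, KARS1 and RARS1 fell, at -0.46, -0.53, -0.33 and -0.50. Genes of the endoplasmic reticulum split evenly. Of 24 tested, 10 were higher and 11 lower, median -0.11. HERPUD1, XBP1 and the chaperone HSPA5 rose by 2.50 ± 0.05, 2.10 ± 0.06 and 1.55 ± 0.05, while HYOU1, a partner of HSPA5, fell, at -1.49 ± 0.04. The CHAC1 promoter holds the composite element of C/EBP and ATF factors, TGATGNAA, shown in capitals on the strand opposite to the gene (chr15:40953246-40953285, plus strand).
CHAC1: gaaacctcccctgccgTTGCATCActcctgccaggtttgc
It was found in 6 of 30 ATF4 target promoters and in 1.67% of the promoters of genes tested.

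Interferon-stimulated genes were higher in the persisters than in parental cells, although well below their level in chemoresistant cells. Of 32 listed, 23 reached the filter, 6 of them in 1 group only, and the 23 were called higher, with a median of 1.32; 21 of them did not overlap between the groups. From parental to chemoresistant cells the same 23 genes had a median of 3.72 and from chemoresistant cells to their persisters -2.43, and these steps share the chemoresistant libraries. BST2, which tethers budding viruses, was at 1.38 to 2.68 FPKM (median 2.3) in the parental libraries and 151 to 233 FPKM (median 164) in the chemoresistant DTP libraries, a log2 fold change of 5.77 ± 0.35 (SE; adjusted p = 3.06e-13). IFI27 went from 0.172, 0.267 and 0.385 FPKM (lowest, median, highest parental library) to 25.2, 31.1 and 45 FPKM, changing by 4.70 ± 0.29 (SE; adjusted p = 3.68e-13), with a median of 179 in chemoresistant cells. ISG15, a ubiquitin-like modifier, was at 11.8 to 16 FPKM (median 13.5) in the parental libraries and 42.8 to 78.4 FPKM (median 47.2) in the chemoresistant DTP libraries, changing by 1.90 ± 0.19 (SE; adjusted p = 2.26e-09). Its median was 544 FPKM in chemoresistant cells, so that the persisters lay between the 2 lines. OAS3, a sensor of double-stranded RNA, had the same order, with medians of 3.19, 51.4 and 6.63 FPKM in parental, chemoresistant and chemoresistant DTP cells. Of 20 tested genes of interferon sensing and signalling, 16 were higher and 1 lower, median 0.61 (15 and 3 with relative log expression factors). IRF7 and STAT2, factors that drive this programme, rose by 1.35 ± 0.10 and 1.20 ± 0.07.

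The element that interferon-activated factors bind, GAAANNGAA on either strand, was in 16 of the 19 promoters of the interferon list (84.2%) and in 6.42% of those of genes tested. The stretch before the start of IFI6 (chr1:27672283-27672323, minus strand) and that of ISG15 (chr1:1013374-1013414, plus strand) are shown with 1 match in capitals. Further matches overlap or adjoin them.
IFI6: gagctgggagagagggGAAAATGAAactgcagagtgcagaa
ISG15: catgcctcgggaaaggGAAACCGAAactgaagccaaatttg
Genes of MHC class I presentation were mostly higher too. Of 20 listed, 19 reached the filter, 16 higher and 3 lower, with a median of 0.69, and steps of 1.19 and then -0.74. HLA-B was at 6.2 to 8.15 FPKM (median 6.35) in the parental libraries and 33.2 to 55.2 FPKM (median 36.5) in the chemoresistant DTP libraries, a log2 fold change of 2.35 ± 0.13 (SE; adjusted p = 2.6e-14), and HLA-C and the immunoproteasome subunit PSMB9 rose by 1.65 ± 0.08 and 1.25 ± 0.09. TAP2, CALR and PDIA3 fell, at -0.44, -0.68 and -0.31. Among the genes with a small resistance step were HLA-DRA and HLA-DPA1, chains of MHC class II. HLA-DRA was at 80.9 to 91.3 FPKM (median 87.7) in the parental libraries and 32.5 to 41.5 FPKM (median 34) in the chemoresistant DTP libraries, a change of -1.27 ± 0.05 (SE; adjusted p = 4.45e-17), and HLA-DPA1 at -1.29 ± 0.05. In chemoresistant cells HLA-DRA had a median of 90.0 FPKM, as in parental cells. Ligands of the natural killer receptor NKG2D split: RAET1L, ULBP1 and ULBP2 rose by 3.15 ± 0.08, 2.74 ± 0.08 and 1.14 ± 0.08, while MICA, MICB and ULBP3 fell, at -0.70, -0.60 and -0.45.

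Late squamous genes were among the largest rises. Of 30 genes of the cornified envelope 14 reached the filter, 4 of them in 1 group only, with 13 higher and 1 lower and a median of 1.97; IVL and LORICRIN, defining components of that envelope, were among the 16 that did not. SPRR2D, a small proline-rich envelope protein, was at 2.11 to 3.46 FPKM (median 2.98) in the parental libraries and 68.2 to 145 FPKM (median 89.9) in the chemoresistant DTP libraries, a log2 fold change of 4.66 ± 0.17 (SE; adjusted p = 7.71e-18), and SPRR1A and SPRR3 changed by 3.32 ± 0.12 and 2.57 ± 0.09. The SPRR2 copies may share reads. Of 16 S100 genes 14 reached the filter, 4 of them in 1 group only, and 13 were higher, with a median of 1.49. S100A9, a subunit of the calprotectin dimer of stressed epithelium and myeloid cells, was at 4.4 to 8.91 FPKM (median 6.52) in the parental libraries and 1007 to 1490 FPKM (median 1083) in the chemoresistant DTP libraries, a log2 fold change of 7.23 ± 0.39 (SE; adjusted p = 2.23e-14). Its partner S100A8 went from 0.282, 0.504 and 0.778 FPKM (lowest, median, highest parental library) to 75.2, 80.8 and 124 FPKM and changed by 5.85 ± 0.19. S100P and S100A7 rose by 5.17 ± 0.22 and 4.78 ± 0.14. For each of the 4 the ranges were separate. The SPRR genes named here and S100A7, S100A8 and S100A9 lie together on chromosome 1, between 150 and 160 Mb. In that window, picked after its value was seen, 121 of 158 genes tested were higher and 16 lower, with a median of 0.47. The 2 lists thus share a position, and its part in their rise was not tested.

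The keratins did not move together. Of 17 tested, 9 were higher and 4 lower, median 0.53, and 8 and 7 with relative log expression factors. KRT16, of wounded and hyperproliferative epithelium, was at 2.5 to 3.51 FPKM (median 3.13) in the parental libraries and 37.1 to 72.7 FPKM (median 48) in the chemoresistant DTP libraries, a log2 fold change of 3.60 ± 0.12 (SE; adjusted p = 1.41e-18). KRT4 and KRT13 are the usual pair of the upper layers of the oesophagus, and they moved in opposite directions. KRT4 rose by 2.43 ± 0.06 (SE; adjusted p = 9.2e-22) and KRT13 fell, at -1.86 ± 0.06 (SE; adjusted p = 7.93e-19), from medians of 7.56 to 45.8 and 752 to 201 FPKM. Of 25 kallikrein, clade B serpin and related inhibitor genes 13 reached the filter, and 13 were higher, median 1.25; 6 of them reached 1 FPKM in 1 group only, which fixed their direction. PI3 (elafin) and SLPI, elastase inhibitors of skin and mucosa, rose by 4.94 ± 0.16 and 3.33 ± 0.11, and KLK10 by 3.21 ± 0.10.

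Of 31 cytokine and chemokine genes 20 reached the filter, 17 higher and 3 lower, with a median of 1.42, but 10 of the 20 reached 1 FPKM in 1 group only, so that the filter fixed their direction. CXCL8, a neutrophil attractant, was at 3.67 to 6.29 FPKM (median 4.22) in the parental libraries and 67.8 to 84.6 FPKM (median 75.7) in the chemoresistant DTP libraries, a log2 fold change of 3.77 ± 0.11 (SE; adjusted p = 2.32e-19). IL1A, an alarmin, was at 0 to 0.0442 FPKM (median 0.0196) in the parental libraries and 7.86 to 8.88 FPKM (median 8.39) in the chemoresistant DTP libraries, and CCL20 changed by 3.18 ± 0.07. CXCL16, CCL2 and LCN2 were the 3 that fell, at -1.03, -0.66 and -0.32. Of 26 tested ligands and feedback genes of EGFR and ERK, 19 were higher and 3 lower, median 0.65 (17 and 6 with relative log expression factors), and 5 of the 26 reached the filter in 1 group only. Parental DTP against parental cells gave that list a median of 0.35, and chemoresistant DTP against parental DTP cells -0.06. HBEGF, a ligand of EGFR, went from 0.702, 0.988 and 1.05 FPKM (lowest, median, highest parental library) to 22.1, 25.1 and 25.7 FPKM, changing by 3.72 ± 0.05 (SE; adjusted p = 4.36e-25), and ERRFI1, an inhibitor of the receptor, by 2.39 ± 0.08 (SE; adjusted p = 3.05e-18). VEGFA, the vascular growth factor, was at 3.59 to 4.13 FPKM (median 3.84) in the parental libraries and 29.6 to 34.7 FPKM (median 31.6) in the chemoresistant DTP libraries, a log2 fold change of 2.75 ± 0.04 (SE; adjusted p = 2.55e-25). It belongs to the list of glycolysis and hypoxia, of which 30 genes were tested, 11 higher and 7 lower (9 and 12 with relative log expression factors). That list's median was 0.10 and turned to -0.11 with these factors.

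**Figure D3:**
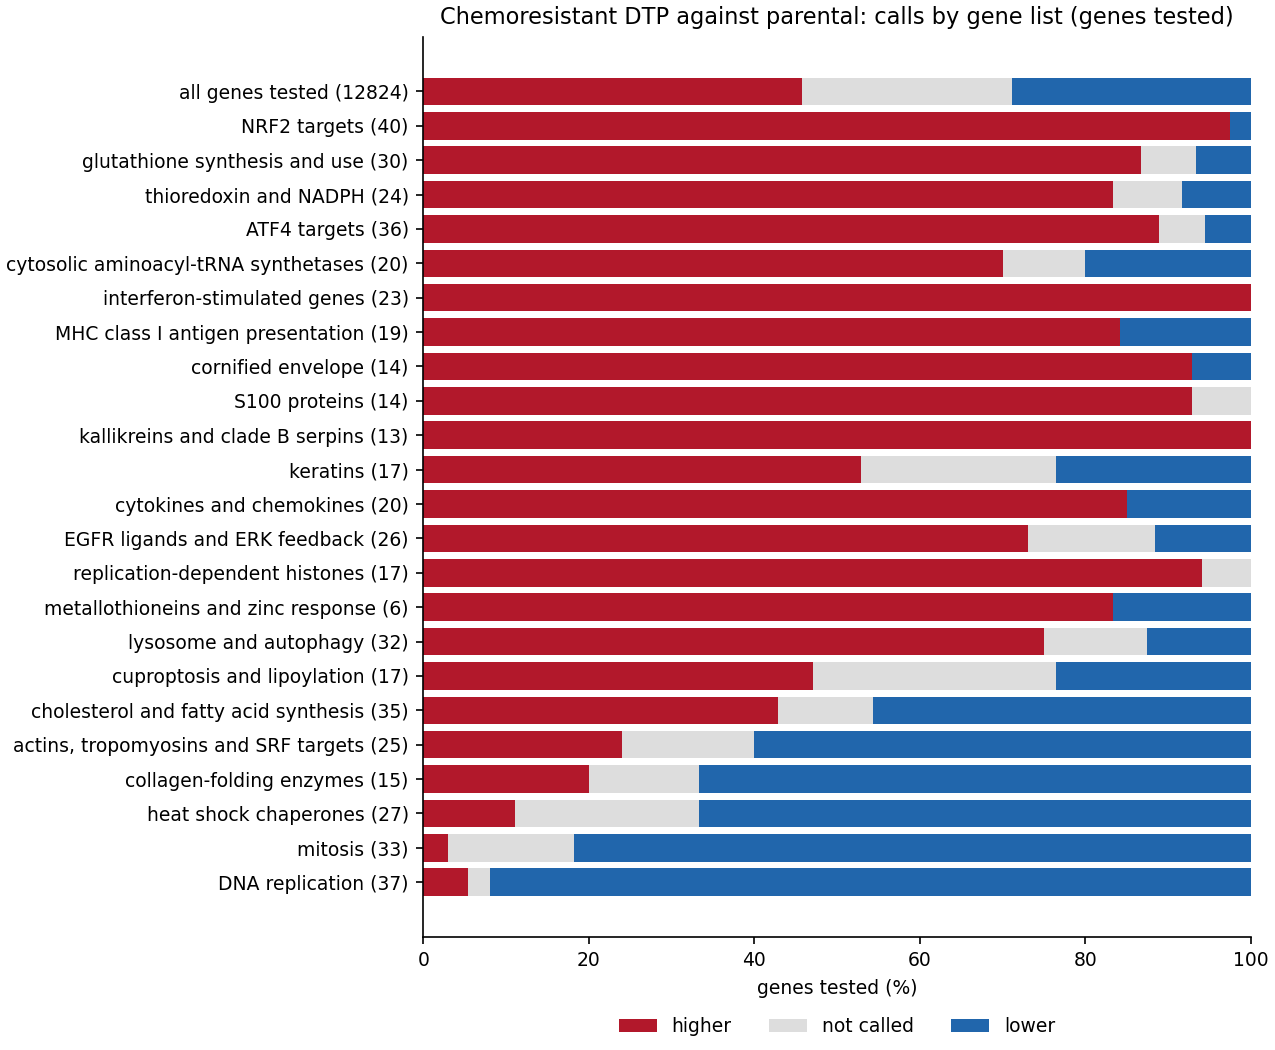
Share of the tested members of 23 gene lists, and of all genes tested, called higher (red), lower (blue) or not called (grey) in chemoresistant DTP against parental cells, with the number tested in brackets. NRF2 targets and interferon-stimulated genes are nearly all red, DNA replication and mitosis nearly all blue, and the top bar gives the 45.8% and 28.9% of all genes.

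Genes of cell division were lower. All 37 DNA replication genes reached the filter, 34 lower and 2 higher, with a median of -0.58, and of 33 mitosis genes 27 were lower and 1, NUF2, higher, median -0.64. From parental to chemoresistant cells the medians were -0.62 for DNA replication and -0.75 for mitosis. From chemoresistant cells to their persisters they were 0.04 and 0.16. The fall was not particular to the chemoresistant persisters, as parental DTP against parental cells gave -0.46 and -0.57. MCM10, which starts replication forks, went from 12.2, 12.9 and 14 FPKM (lowest, median, highest parental library) to 3.55, 4.75 and 5.31 FPKM, a log2 fold change of -1.33 ± 0.07 (SE; adjusted p = 3.59e-14). MKI67, the proliferation antigen Ki-67, was at 45.2 to 66.1 FPKM (median 61.2) in the parental libraries and 10.3 to 27.4 FPKM (median 23.9) in the chemoresistant DTP libraries, changing by -1.42 ± 0.16 (SE; adjusted p = 3.21e-08). The 2 groups did not overlap. AURKB, a mitotic kinase, fell, at -1.66 ± 0.08. CDKN1A, the p21 inhibitor of cyclin-dependent kinases, was at 0.821 to 1.35 FPKM (median 1.27) in the parental libraries and 8.8 to 12.2 FPKM (median 11.1) in the chemoresistant DTP libraries, a rise of 2.45 ± 0.08 (SE; adjusted p = 1.93e-18), and the inhibitors CDKN1C and CDKN2B rose by 1.55 ± 0.08 and 1.39 ± 0.05. CCND2 rose by 2.21 ± 0.10. These are single rises: of 20 tested genes of G1 cyclins and CDK inhibitors, 7 were higher and 9 lower, median -0.13. With relative log expression factors 6 were higher and 11 lower. Replication-dependent histones, whose mRNAs normally lack a poly(A) tail, went up: 17 of 29 reached the filter, 4 of them in 1 group only, 16 higher and none lower, median 1.13, with H1-2 changing by 2.31 ± 0.14. Nuclear-retained RNAs moved with them. The 6 listed summed to 70.3 to 98.7 FPKM in parental and 99.0 to 148 in chemoresistant DTP libraries, with NEAT1 changing by 1.94 ± 0.09. Their part in the histone values was not tested.

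Heat shock chaperones fell. Of 28 listed 27 reached the filter, 18 lower and 3 higher, with a median of -0.45, and 9 were at least 2-fold lower. HSPA8, the constitutive Hsc70, was at 727 to 814 FPKM (median 799) in the parental libraries and 130.5 to 143 FPKM (median 136) in the chemoresistant DTP libraries, a log2 fold change of -2.51 ± 0.05 (SE; adjusted p = 4.35e-22). HSPA1A, the inducible Hsp70, whose reads may be shared with HSPA1B, went from 301, 382 and 419 FPKM (lowest, median, highest parental library) to 63.7, 66.7 and 75.5 FPKM, changing by -2.40 ± 0.11 (SE; adjusted p = 4.1e-16). HSP90AA1 fell, at -1.96 ± 0.09, and CHORDC1, a cofactor of Hsp90, went from 23.4, 24.5 and 26.4 FPKM (lowest, median, highest parental library) to 5.04, 5.46 and 5.65 FPKM. Parental and persister libraries were separate for all 4. HSPA8, HSP90AA1 and CHORDC1 were lower still in chemoresistant cells, with medians of 95.4, 108 and 2.58 FPKM. For HSPA1A the step from chemoresistant cells to their persisters was 0.19 ± 0.11 (SE; adjusted p = 0.142) and did not pass. Of the list, 21 of the 27 genes were called higher in the persisters than in chemoresistant cells and none lower. Over all genes tested the shares of that step were 21.8% and 25.1%. Parental DTP cells shared the fall from parental cells, with a list median of -0.57. The HSPA8 promoter holds the heat shock element GAANNTTC (chr11:123062163-123062202, minus strand, capitals).
HSPA8: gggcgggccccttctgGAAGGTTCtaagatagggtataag
It was found in 8 of 24 promoters of the list (33.3%) and in 4.65% of those of genes tested.

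Some of the largest falls are named singly, whether or not a list holds them. FKBP10, a collagen chaperone of the endoplasmic reticulum, fell most and was at 25.8 to 28.3 FPKM (median 27) in the parental libraries and 0.421 to 1.24 FPKM (median 0.965) in the chemoresistant DTP libraries, a log2 fold change of -3.92 ± 0.10 (SE; adjusted p = 5.25e-21). TPM2, a tropomyosin, went from 46.1, 47.3 and 50.1 FPKM (lowest, median, highest parental library) to 1.56, 3.47 and 7.09 FPKM, changing by -3.48 ± 0.29 (SE; adjusted p = 7.57e-11). The transcription factor genes IRX1 and TBX1 fell, at -3.04 ± 0.06 and -2.68 ± 0.07, and IGF2BP1, an oncofetal RNA-binding protein, at -2.73 ± 0.08. PLTP, CCDC8, NPW, ANK1 and TNFRSF8 fell, at -2.95, -2.82, -2.70, -2.62 and -2.61 on the log2 scale. CCDC8 was at 6.01 to 7.22 FPKM (median 6.42) in the parental libraries and 0 to 0.167 FPKM (median 0.0198) in the chemoresistant DTP libraries. Of 15 tested collagen-folding genes 10 were lower and 3 higher, median -0.23 (11 and none with relative log expression factors), SERPINH1 among them at -1.45. Of 25 tested genes of actin, tropomyosin and SRF targets 15 were lower and 6 higher, median -0.43 (-0.31 without chemoresistant DTP library 2). ACTB, often taken as a constant reference, was at 1215 to 1719 FPKM (median 1659) in the parental libraries and 594 to 700.3 FPKM (median 613) in the chemoresistant DTP libraries, changing by -1.28 ± 0.10 (SE; adjusted p = 1.95e-11). AXL, a receptor kinase of mesenchymal-like cells, fell, at -2.29 ± 0.08, while VIM (vimentin) rose by 1.73 ± 0.13 and the epithelial claudin CLDN7 by 3.07 ± 0.07. As lists, both kinds were mixed. Of 18 tested mesenchymal genes and EMT factors 8 were higher and 6 lower, median 0.45. Of 27 tested genes of epithelial junctions 17 were higher and 8 lower, median 0.40.

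Genes of cuproptosis changed little as a list. Of 22 listed 17 reached the filter, 8 higher and 4 lower, and 7 and 9 with relative log expression factors, under which the median of 0.07 turned to -0.15. FDX1, the ferredoxin that reduces copper in this death pathway, was at 2.49 to 3.22 FPKM (median 2.83) in the parental libraries and 4.43 to 5.8 FPKM (median 4.75) in the chemoresistant DTP libraries, a log2 fold change of 0.61 ± 0.07 (SE; adjusted p = 1.36e-08). SLC31A1, the copper importer CTR1, was at 11.2 to 12.7 FPKM (median 11.7) in the parental libraries and 15.9 to 20.8 FPKM (median 19.6) in the chemoresistant DTP libraries, changing by 0.63 ± 0.06 (SE; adjusted p = 1.78e-09). DLAT, a lipoylated enzyme subunit, fell, at -0.36 ± 0.06. OGDH, a subunit of another complex with a lipoylated member, fell too, at -0.76 ± 0.07. DLD, the subunit that these complexes share, rose by 0.55 ± 0.07. Metallothioneins, which bind copper and zinc, rose more. MT2A was at 189 to 221 FPKM (median 194) in the parental libraries and 484 to 857 FPKM (median 552) in the chemoresistant DTP libraries, changing by 1.54 ± 0.10 (SE; adjusted p = 3.49e-13). MT1F and MT1X changed by 2.80 ± 0.09 and 2.09 ± 0.16, and MT1 copies may share reads. Of 13 listed 6 reached the filter, 5 higher and 1 lower. SLC30A1, a zinc exporter that responds to the same metal-sensing factor, rose by 1.08 ± 0.07.

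Single genes tied to drug handling and cell death also differed. MVP, the major vault protein, rose by 2.17 ± 0.08 and ABCC1, a drug efflux pump, by 0.96 ± 0.08. Of 24 genes of efflux and platinum transport 13 reached the filter, 10 higher and 1 lower, median 0.58 (8 and 3 with relative log expression factors). The dehydrogenases ADH7 and ALDH1A1, which clear alcohols and retinaldehyde, were at medians of 0.808 and 0.889 FPKM in parental cells and 47.8 and 14.6 in persisters, changing by 4.78 ± 0.11 and 3.08 ± 0.08. Of 33 tested repair genes 16 were lower and 6 higher, none by 2-fold, median -0.14, and 26 and 3 with a median of -0.34 with relative log expression factors. Among pro-death BH3 genes, BIK, PMAIP1, BBC3 and HRK rose, by 1.97, 1.75, 1.55 and 1.43, while BID fell, at -0.28. BOK, BCL2L12, BAX and BAK1, of the same family, fell as well, at -0.71, -0.69, -0.29 and -0.25. Of 16 tested BCL2 family genes 9 were higher and 5 lower, median 0.43. Of 26 tested p53 targets 17 were higher and 5 lower, median 0.49 (14 and 8 with these factors), led after GDF15 by SESN2 at 2.98 ± 0.05. CASP1, the inflammatory caspase, fell, at -0.61 ± 0.06. The 14 caspases and gasdermins tested had 7 higher and 5 lower, with a median of 0.16 that turned to -0.01 with relative log expression factors. For this list and the BCL2 family the counts lay near the shares over all genes tested, 45.8% higher and 28.9% lower.

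Housekeeping groups moved by small amounts, and their counts depended on the scaling. Of 43 cytosolic ribosomal protein genes 30 were higher and 3 lower, median 0.28, and 13 and 8 with relative log expression factors. For the nuclear respiratory chain 29 of 35 were higher and 2 lower, median 0.40, and 19 and 4 with these factors. The proteasome had 14 of 30 higher and 6 lower, median 0.13, and 4 and 12 with a median of -0.08. Mitochondrial mRNAs had 4 of 13 higher and 6 lower, median -0.07, and none and 8. Within them MT-ND1, a subunit of complex I, fell from a median of 4897 to 2656 FPKM, -0.88 ± 0.06 (SE; adjusted p = 1e-12). The 35 tested genes of cholesterol and fatty acid synthesis had 15 higher and 16 lower with a median of 0.05, and 9 and 18 with a median of -0.16 with the factors, DHCR7 falling, at -1.76 ± 0.06. Lysosome and autophagy genes had 24 of 32 higher and 4 lower, median 0.40, and 18 and 8 with a median of 0.20 with the factors. SQSTM1, an autophagy receptor that also frees NRF2 from KEAP1, was at 25.4 to 29.4 FPKM (median 27.1) in the parental libraries and 107 to 128 FPKM (median 121) in the chemoresistant DTP libraries, a log2 fold change of 2.09 ± 0.05 (SE; adjusted p = 9.5e-22).

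More genes were called in the step to chemoresistant cells than in the step to their persisters. Against parental cells, chemoresistant cells had 5975 genes higher (46.6%) and 3971 lower (31.0%), while their persisters had 2798 higher (21.8%) and 3222 lower (25.1%) than the chemoresistant cells. The 2 steps share the chemoresistant libraries, and the summed change shares a group with each. AKR1C3 had steps of 7.09 and 0.22, S100A9 of 7.21 and 0.02 and FKBP10 of -3.57 and -0.35. The genes named next rose in both steps, chosen by the size of the smaller one. SPRR2D had steps of 2.91 and 1.75, CXCL8 of 2.03 and 1.74, GDF15 of 4.01 and 1.59, KRT16 of 2.23 and 1.36 and MT1F of 1.44 and 1.36. In falls of both steps, PCDH19, a protocadherin, had -0.91 and -0.71, IRX4 -1.56 and -0.68 and PTPRZ1 -1.26 and -0.59. For the genes named as moving the same way in both steps, each step passed the adjusted p threshold.

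**Figure D4:**
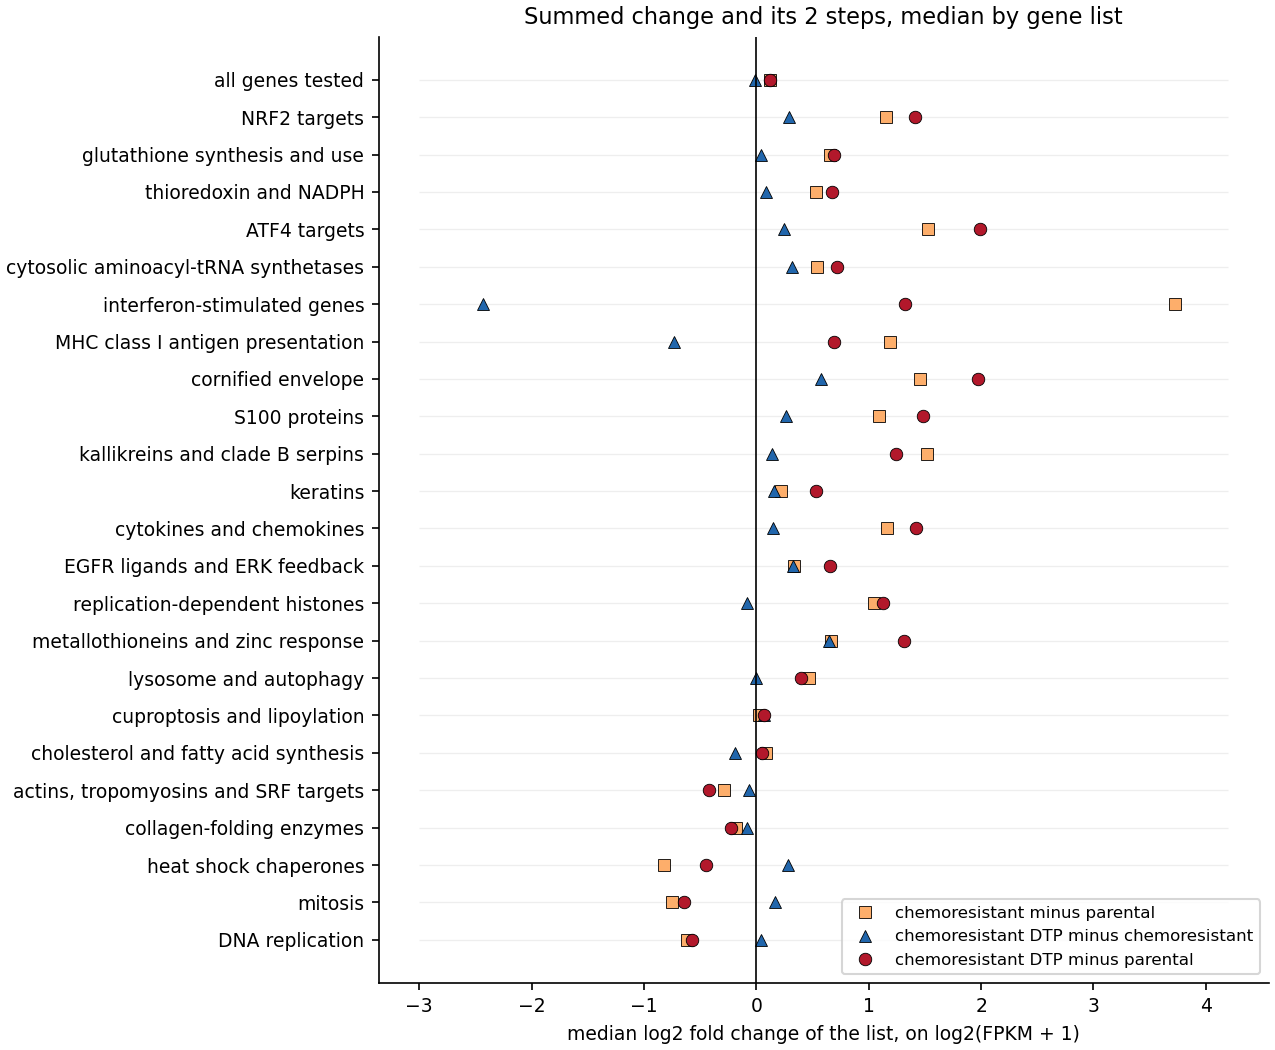
Median log2 fold change of the tested members of 23 lists and of all genes tested, for chemoresistant against parental (squares), chemoresistant DTP against chemoresistant (triangles) and their sum, chemoresistant DTP against parental (circles). The interferon-stimulated genes go to 3.72 and back by -2.43, and heat shock chaperones to -0.82 and back by 0.28.

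Other genes changed mainly in the persister step. By the rule of a resistance step under 0.25, GCLM had steps of 0.18 and 1.04, MISP, an actin-bundling spindle protein, 0.11 and 0.93, and GADD45B, a stress sensor, 0.17 and 0.79. Falls of this kind were HLA-DRA (0.05 and -1.32), HLA-DPA1 (-0.23 and -1.06), the carboxylesterase CES2 (-0.05 and -1.09) and ID3 (-0.00 and -1.14), an inhibitor of differentiation factors and a target of BMP signals. ID3 was at 21.1 to 25.1 FPKM (median 22.1) in the parental libraries and 7.54 to 12.3 FPKM (median 9.84) in the chemoresistant DTP libraries, a summed change of -1.14 ± 0.08 (SE; adjusted p = 3.68e-12). TXNRD1 (0.76 and 1.16) and ERRFI1 (0.34 and 2.05) also gained more in the second step than in the first. Within the NRF2 targets, AKR1C3 was already high in chemoresistant cells, and GCLM and TXNRD1 had their highest medians in the chemoresistant persisters. Genes whose steps were opposite included interferon genes, IFI6 with 6.34 and -3.50, IFIT3 with 4.61 and -2.86 and OASL with 4.15 and -2.66. Among long non-coding and antisense RNAs, NHSL1-AS1, LINC01388 and LINC01133 rose, by 3.29 ± 0.07, 2.88 ± 0.13 and 2.82 ± 0.06. LINC01133 was at 0.0727 to 0.104 FPKM (median 0.0968) in the parental libraries and 5.95 to 7.97 FPKM (median 6.59) in the chemoresistant DTP libraries. SNHG4, a host gene of small nucleolar RNAs, fell, at -1.26 ± 0.08. As strandedness is not given, reads of antisense pairs such as NHSL1-AS1 cannot be told apart from those of the gene opposite.

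The changes were grouped by position, a feature that the choice of genes did not use. In 232 windows of 10 Mb with 20 or more genes tested, window medians of the summed change ran from -0.90 to 0.97 around a median of 0.14. The windows named here were chosen after their values were seen. On chromosome 5, between 30 and 50 Mb, 51 of 54 genes tested were higher and 1 lower, with a median of 0.95 (0.99 without chemoresistant DTP library 2). Libraries of the 2 groups did not overlap for 45 of them. They include OSMR, the oncostatin M receptor, at 8.23 to 10.2 FPKM (median 9.09) in the parental libraries and 28.5 to 43.8 FPKM (median 41.8) in the chemoresistant DTP libraries, a log2 fold change of 1.99 ± 0.08 (SE; adjusted p = 2.2e-17). RICTOR, a subunit of mTORC2, GOLPH3, a Golgi protein, and OXCT1, of ketone use, rose by 1.60 ± 0.15, 1.23 ± 0.05 and 1.65 ± 0.06. TARS1 and the ribosomal gene RPL37, described above or with the lists, lie there too, RPL37 at 1.32, the largest change of the ribosomal list. SKP2 and NNT, in the same stretch, did not pass the test.

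Chromosome 11 held the lowest windows. Between 70 and 80 Mb 54 of 65 genes were lower and 9 higher, with a median of -0.71. ANO1, a chloride channel, was at 6.78 to 8.46 FPKM (median 7.7) in the parental libraries and 0.651 to 1.44 FPKM (median 1.21) in the chemoresistant DTP libraries, changing by -2.01 ± 0.08 (SE; adjusted p = 2.28e-17). CTTN, cortactin, and SHANK2 fell, at -0.90 ± 0.04 and -1.62 ± 0.06. POLD3 (-1.49), SERPINH1 (-1.45) and DHCR7 (-1.76), which led the falls of DNA replication, collagen folding after FKBP10 and sterol synthesis, all lie in this window. Between 110 and 120 Mb the direction changed within the window. Of the 18 genes tested before BUD13, 14 were higher and 2 lower, with a median of 0.35. From BUD13 on, 40 of 42 were lower and 1 higher, with a median of -1.003, and 40 of the 42 did not overlap between groups. REXO2, the last tested gene before the change, was at 0.32, and BUD13 and ZPR1, the next 2, at -2.17 ± 0.06 and -1.70 ± 0.05. H2AX, the histone variant of DNA damage signalling, was at 189 to 219 FPKM (median 205) in the parental libraries and 36.5 to 46.1 FPKM (median 38.3) in the chemoresistant DTP libraries, a log2 fold change of -2.34 ± 0.06 (SE; adjusted p = 3.31e-21). FDX1, SDHD and DLAT lie before the change and HYOU1 after it. In these 4 stretches the step from parental to chemoresistant cells had medians of 1.04, -0.63, 0.35 and -1.03. The step to the persisters had medians of -0.05, -0.04, 0.05 and -0.0046. Parental DTP against parental cells gave 0.22, 0.09, 0.24 and 0.09. With relative log expression factors the summed change had medians of 0.80, -0.91, 0.18 and -1.17. No DNA measurement was analysed here, and the cause was not tested.

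**Figure D5:**
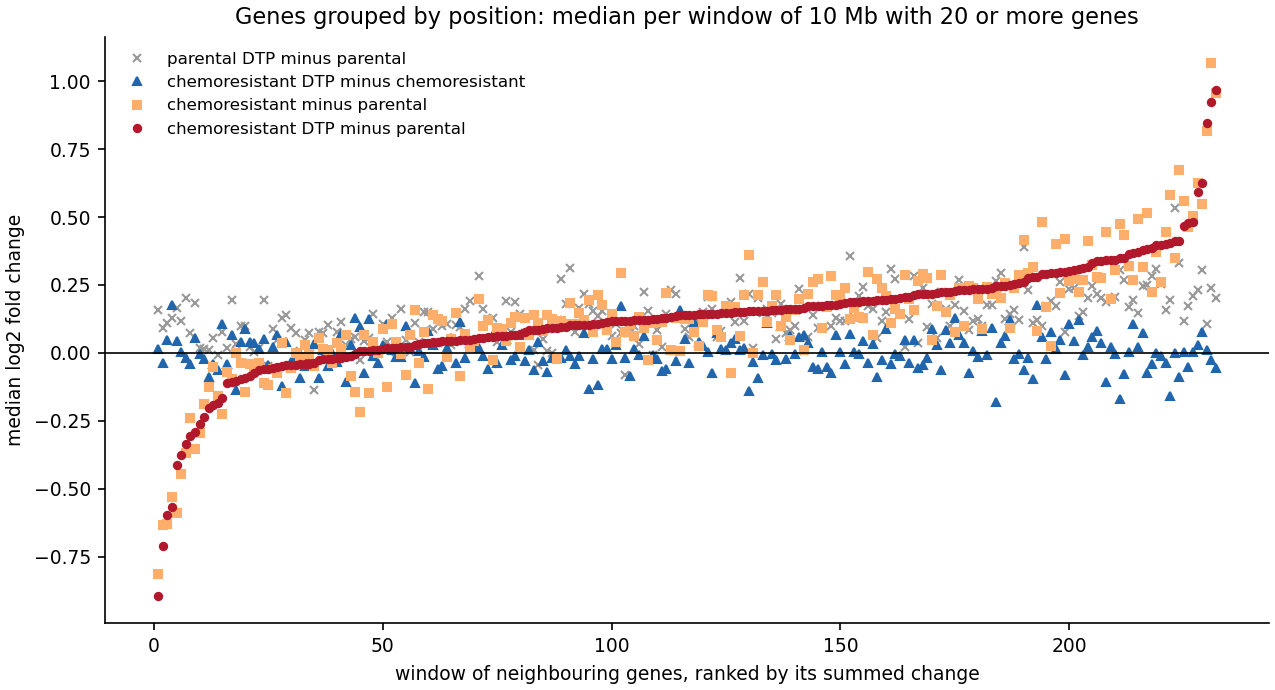
Median log2 fold change in each of the 232 windows of neighbouring genes, ranked by the summed change (circles), with the resistance step (squares), the persister step (triangles) and the persister step of the parental line (crosses). The circles run from -0.90 to 0.97, the squares lie near them at both ends, and the triangles stay near 0.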

How the data were processed

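RNA-seq of 24 libraries was deposited as 1 table of FPKM values, 1 column a library, made by the authors on GRCh38 per the submitters' processing notes. For the aligner, counter, annotation release and strandedness, nothing is given in the sources used here. FPKM values were whole multiples of what 1 read is worth, within 0.02, which gave the recovered reads used for depth and for voom. Genes were tested with limma 3.58.1 (R 4.3.3) on log2(FPKM + 1), with a mean-variance trend, the 4 group means of all 24 libraries and Benjamini-Hochberg adjustment over 12824 genes. The fit was also run on simulated independent counts, which cannot show how it behaves if the libraries are not separate cultures. Genes named are those of the series title, the largest changes among all genes, in each list and in each pattern of steps. Members of small counts, positional examples and genes beside these were named after their values were seen. Members and lists were chosen with earlier results of these data known. Positions of genes come from GENCODE 29 and promoter sequences from RefSeq (GRCh38.p14), which held 8981 of the 12807 gene names tested. The alternatives changed the pseudocount, filter, scaling, libraries, variance model, replicate block and GC content. Gene length and GC content had values for 12824 and 12390 genes.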

Additional observations from a re-analysis of the deposited data

Results flagged for a closer look

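In 50 of 360 groups of 6 libraries (180 genes named in the text, 2 groups each), the highest or the lowest library lay apart from the other 5 by more than Dixon's critical share of the group's range. Chance gives about 1 in 20. Of these, 39 were in chemoresistant DTP library 2, whose deviations fell with gene length (Spearman correlation of -0.44).

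In FPKM, that library lay above the other 5 for AKR1C3 at 313, S100A9 at 1490, AKR1B10 at 104, S100A8 at 124, BST2 at 233, AKR1C2 at 287 and AKR1C1 at 118. It also held, apart from the others, PI3 at 80, KRT16 at 72.7, SLPI at 137, MT1F at 25.2, HLA-B at 55.2, MT2A at 857 and TXN at 790. Further values of this kind were RPL37 at 718, ATF4 at 295, FDX1 at 5.8, EGFL7 at 21.4, BID at 10.9, BAX at 22.4 and BCL2L12 at 9.89. Further values of this kind were ACTB at 700, AURKB at 29.7, KRT13 at 233 and KRT14 at 50.4.

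In FPKM, that library lay below the other 5 for ABCC2 at 11.2, SESN2 at 31.3, OSMR at 28.5, NEAT1 at 24.3, DSG3 at 65, RICTOR at 3.44 and ABCC1 at 45.4. It also held, apart from the others, TP63 at 65.9, EGFR at 46.7, HSPA1B at 29, MKI67 at 10.4, SHANK2 at 0.218, PCDH19 at 1.72 and DHCR7 at 9.6.

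In the remaining libraries, each value was the highest or the lowest of its group. Chemoresistant DTP library 1 held HBEGF at 22.1, SDHD at 8.24, GSR at 30.6 and KARS1 at 80.5 FPKM. Chemoresistant DTP library 4 held PMAIP1 at 8.96 FPKM. Parental library 2 held CHAC1 at 1.46 and CCND2 at 1.45 FPKM. Parental library 4 held MVP at 2.72 FPKM. Parental library 5 held HRK at 0.106, OAS3 at 3.43 and MICB at 3.51 FPKM. Whether these deviations are technical was not tested.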

How the results depend on the processing

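The main counts were 5875 genes higher, 3705 lower, 922 at least 2-fold higher and 360 at least 2-fold lower. With a pseudocount of 0.1 FPKM, 1738 genes were at least 2-fold higher and 607 lower, and voom on recovered reads gave 1811 and 647. Without the filter, 9891 of 37561 genes were higher. With a mean of at least 5 FPKM, 2915 of 7037 were higher, 568 by 2-fold. Relative log expression factors gave 4220 higher, 5408 lower and 635 at least 2-fold lower. They turned the median of caspases and gasdermins to -0.0079, of glycolysis and hypoxia to -0.11 and of the proteasome to -0.0825. The filter at 5 FPKM turned that of caspases and gasdermins to -0.51. Leaving out each library in turn gave 5681 to 6232 higher, 3582 to 3719 lower, 912 to 978 at least 2-fold higher and 340 to 366 at least 2-fold lower. Of 5356 checks of 215 named genes, 7 lost the call, in MT-ATP8, MT-ND4L and EGFL7, and none reversed. The cause of these changes was not tested.

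With the replicate number as a block, 5887 genes were higher, 3714 lower, 921 at least 2-fold higher and 360 at least 2-fold lower. Correlations of same-numbered parental and chemoresistant DTP libraries ran from -0.01 to 0.364, and not every library correlated best with its own number. Number 6, at 0.364, was the best match in both directions. Whether the numbers stand for shared handling was not tested. Precision is limited by depth for genes near 1 FPKM and by the lack of any statement that the libraries were separate cultures.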
